A study of Arabidopsis thaliana with 6 samples.

Results

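The plastid genome of Arabidopsis thaliana carries genes for photosynthetic complexes and a second set of genes for gene expression and housekeeping, some of which also serve photosynthesis. The second set is described here. It comprises the subunits of the plastid-encoded RNA polymerase (rpo), the ribosomal proteins of the small (rps) and large (rpl) subunit, the maturase matK, the carboxylase subunit accD, the protease subunit clpP, ycf1 to ycf4, cemA and ccsA. Members were taken by gene identifier among the plastid rows of the count tables, a rule that uses no measured value. All 39 listed rows were found, among 86 protein-coding plastid rows, 133 plastid rows and 32744 rows in all. The rows rpl2, rpl23, rps7 and ycf2 lie in the inverted repeat and appear as copy A and copy B, so that 35 rows remain when each repeated gene is counted once.

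Plastid genes are read by 2 kinds of polymerase. One is the plastid-encoded polymerase (PEP), a bacterial-type enzyme that needs nuclear-encoded sigma factors to find promoters and nuclear-encoded associated proteins to work in leaves. The other is made of nuclear-encoded, phage-type enzymes. Many plastid transcripts cover several genes in a row and are then cut, spliced and edited by nuclear-encoded proteins before translation on bacterial-type ribosomes, which mix plastid-encoded and nuclear-encoded proteins.

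The study compared 3 libraries labelled as a double mutant, a gene knock-out of AT4G15640 and AT3G21465 with the title mtran1-2-2-1, with 3 wild-type (WT) libraries. The series concerns uncharacterised mitochondrial proteins, and the comparison asks which transcripts differ when both genes are disrupted. All 6 libraries came from untreated whole seedlings grown on media to Boyes stage 1.04, an early rosette-leaf stage. Total RNA was depleted of ribosomal RNA and made into stranded libraries. The labels do not name the accession background, the alleles or the number of plants per library.

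Each library held 53193772 to 78671470 counts, and every member had 1290 to 372713 counts in every library. Levels are given in CPM, counts per 1e+06 of a library total adjusted by TMM factors. AT3G21465 averaged 4.61 ± 0.26 CPM (SD, n = 3) in the libraries labelled double mutant and 7.92 ± 0.50 CPM in WT libraries. Its log2 fold change was -0.78 ± 0.08 (SE) with an adjusted p of 8.95e-05. AT4G15640 averaged 13.4 ± 0.725 CPM in the libraries labelled double mutant and 11.95 ± 1.07 CPM in WT libraries, a log2 fold change of 0.16 ± 0.08 with an adjusted p of 0.121 (0.0338 without WT replicate 2). AT4G15640 transcript was therefore not lower, and every direction below rests on the genotype label. Markers of green shoot tissue summed to 4379 to 4985 CPM in the libraries labelled double mutant and to 7868 to 9316 CPM in WT libraries, and 3 of 4 were lower, against 26% of all tested genes. The largest part of this sum was RBCS1A (AT1G67090), at 2063 CPM in the libraries labelled double mutant and 4732 CPM in WT libraries. The groups overlapped for LHCA1 (AT3G54890), which was not called, at -0.18 ± 0.10 (adjusted p = 0.145). Root markers summed to 505 to 557 CPM in the libraries labelled double mutant and to 818 to 1213 CPM in WT libraries, nearly all of it PYK10 (AT3G09260), and 3 of 4 were called lower. The call of the root hair gene SHV2 (AT5G49270, adjusted p = 0.0474) had overlapping groups and was lost without replicate 2 or 3 of the libraries labelled double mutant or without WT replicate 1 or 3, with adjusted p up to 0.131. None of the seed and flower markers was at 0 in every library, but both lists summed to under 5 CPM in each library. The part of these shifts in the results on plastid genes was not tested, and in bulk RNA fewer cells of a type and less RNA per cell cannot be told apart.

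Relative to all genes most of the 39 genes were lower in the libraries labelled double mutant. When libraries were scaled on plastid protein-coding genes, these included, as many were lower as higher. By edgeR's quasi-likelihood test with Benjamini-Hochberg adjustment over 21805 genes, 34 of 39 fell and 0 rose at an adjusted p under 0.05, against 26% of all tested genes that fell, 26.3% that rose and 52.4% in either direction. The median log2 fold change was -0.58, from -1.24 for matK to -0.09 for ycf3, beside a median of 0.01 over all tested genes. With repeated genes counted once, 30 of 35 fell. In 36 of 39 members every library labelled double mutant lay below every WT library, which held for 29.8% of all tested genes. The groups overlapped for rps14, rps4 and ycf3, and these with accD and clpP were the 5 members that did not pass the test.

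Of the other 47 protein-coding plastid rows, 42 fell and 0 rose relative to all genes, with a median log2 fold change of -0.50. The 12 NDH rows, which encode the plastid NADH dehydrogenase-like complex, all fell with a median of -0.45, and 28 of 33 rows for photosynthetic complexes and rbcL fell with a median of -0.53. The difference between the medians of the members and of the other plastid genes was not tested. All plastid rows together took 46.3 ± 2.55% of counts in the libraries labelled double mutant and 55.9 ± 1.17% in WT libraries (SD, n = 3 each). The members took 2.72 ± 0.0828% of all counts in the libraries labelled double mutant and 3.12 ± 0.264% in WT libraries. Of the counts on plastid protein-coding rows, however, they took 5.95 ± 0.491% in the libraries labelled double mutant and 5.66 ± 0.547% in WT libraries, so that the groups overlapped on this measure. Together psbA and rbcL held 65.9 ± 1.58% of these counts in the libraries labelled double mutant and 70.2 ± 0.758% in WT libraries. The share of the members therefore also depends on psbA and rbcL.

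Because the whole plastid transcript pool was lower, the members were also set against the plastid protein-coding genes. When libraries were scaled on these genes alone (the plastid scale), the median of all tested genes moved by 0.51 on the log2 scale, to 0.52. The factors are TMM factors, which trim and weight rows, so the scale does not follow the summed plastid counts. On it psbA stood at -0.15 without passing the test, and rbcL stood at -0.19 and passed it. This scale rests on 86 rows, 39 of them the members themselves, which draws the members towards 0 by construction. A near balance of lower and higher members was therefore partly built in. On this scale 9 of 39 members were lower and 9 were higher, against 8.21% lower, 66.8% higher and 75% in either direction of all tested genes, and the median member stood at -0.06. Of the other plastid protein-coding rows, 7 were lower and 12 were higher, with a median of 0.01. Members lower on the plastid scale were matK, rps16, rpl33, rps18, rps15, rpl14, ccsA and both copies of ycf2. Members higher on it were ycf3, rps14, rps4, clpP, accD, ycf4, the first part of rps12 and both copies of rps7. The higher members included all 5 that had not passed the test against all genes. Directions below are relative to all genes unless the plastid scale is named.

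**Figure D1:**
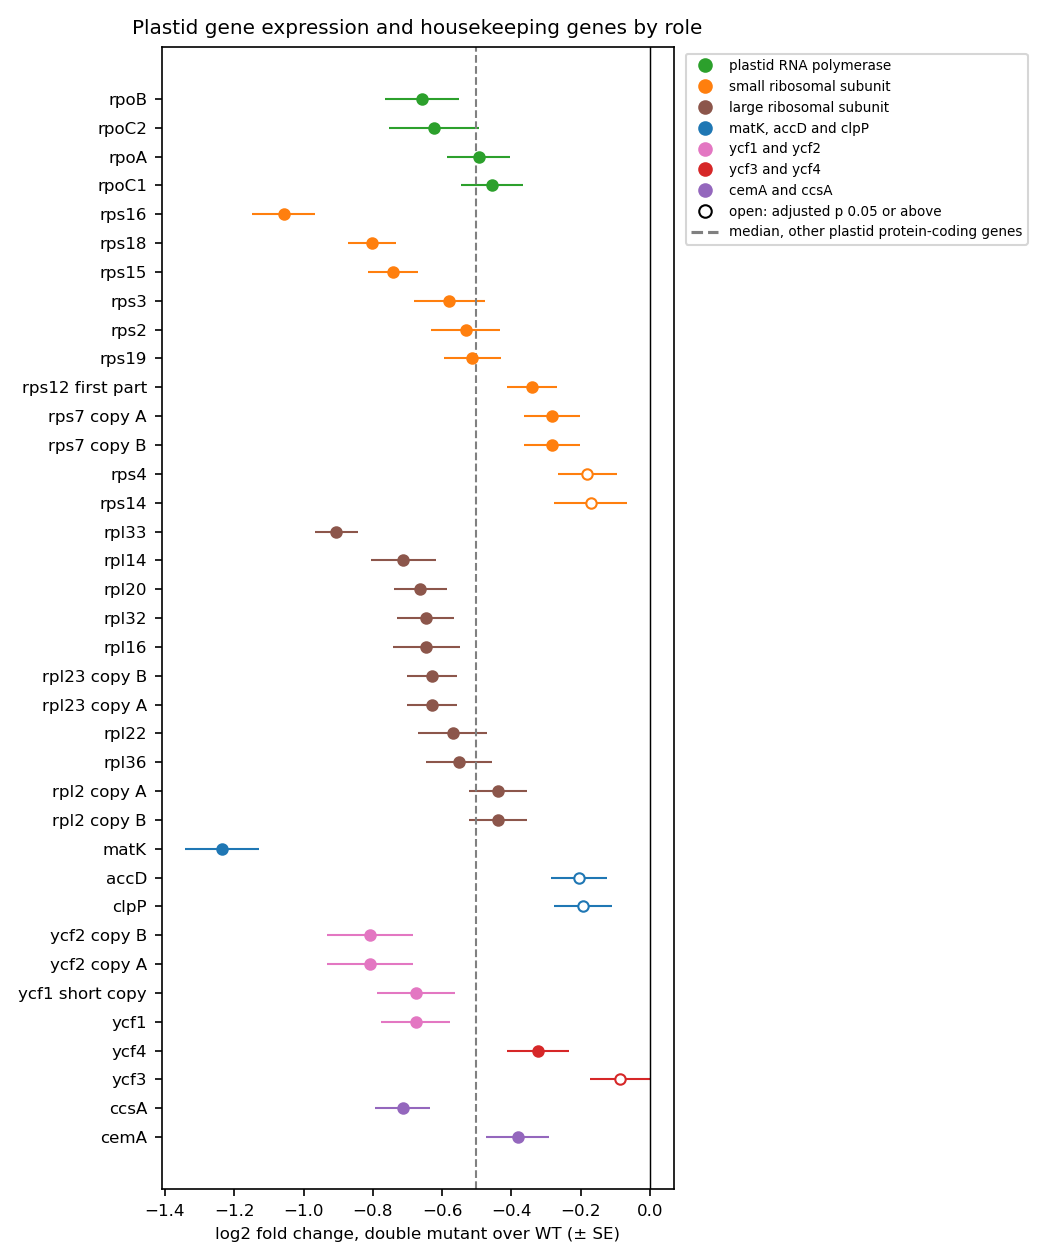
Log2 fold change of 37 members (x axis, libraries labelled double mutant over WT, scaled on all genes, bars ± SE), grouped and coloured by role, with open points for an adjusted p of 0.05 or above and a dashed line at the median of the other plastid protein-coding genes. Values run from -1.24 for matK to -0.09 for ycf3. When libraries are scaled on plastid genes instead, 15 members change sign, of which 9 pass the test on that scale.

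The 4 genes for the core of PEP fell together relative to all genes, with a median log2 fold change of -0.56. On the plastid scale none of the 4 passed the test, and rpoA and rpoC1 turned slightly positive. Of all tested genes 26% fell relative to all genes, and 75% passed the test in either direction on the plastid scale. The gene rpoB (ATCG00190), at 23111 to 26329 on the minus strand of the plastid genome (TAIR10), encodes the beta subunit. It had 405, 385 and 367 CPM in the libraries labelled double mutant, against 525, 701 and 600 CPM in WT libraries. Every library labelled double mutant was below every WT library, and the log2 fold change was -0.66 ± 0.11 (SE) with an adjusted p of 0.00097. Its neighbours rpoC1 (ATCG00180, 20251 to 23084) and rpoC2 (ATCG00170, 15938 to 20068) encode the beta-prime and beta-double-prime subunits. The counts of rpoC1 were 589, 579 and 554 CPM in the libraries labelled double mutant, against 701, 869 and 792 CPM in WT libraries. Those of rpoC2 were 638, 580 and 550 CPM in the libraries labelled double mutant, against 765, 1093 and 868 CPM in WT libraries. Neither gene's groups overlapped, and log2 fold changes were -0.46 ± 0.09 for rpoC1 (adjusted p = 0.00286) and -0.62 ± 0.13 for rpoC2 (adjusted p = 0.0037). The alpha subunit gene rpoA lies apart from these, at the end of the large ribosomal protein cluster (ATCG00740, 77901 to 78890, minus strand). It had 445, 442 and 437 CPM in the libraries labelled double mutant, against 583, 707 and 576 CPM in WT libraries. The libraries labelled double mutant were close to each other and below all WT libraries, with a log2 fold change of -0.49 ± 0.09 (adjusted p = 0.00192). WT replicate 2 was the highest WT library for all 4 genes, as it was for 35 of the 39 members.

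Of the genes for the small ribosomal subunit, 11 of 13 fell relative to all genes, with a median of -0.53, against 26% of all tested genes. On the plastid scale 3 were lower and 5 were higher, against 8.21% and 66.8% of all tested genes. The lowest was rps16 (ATCG00050), a gene with an intron at 5084 to 6188 on the minus strand, close to matK. It was also the member with the fewest counts, at 17.4, 17.5 and 18.2 CPM in the libraries labelled double mutant, against 32.6, 42.0 and 35.8 CPM in WT libraries. The groups were well apart, and the log2 fold change of -1.06 ± 0.09 (adjusted p = 2.78e-05) put the libraries labelled double mutant at 48.0% of the WT level. The next was rps18 (ATCG00650, 67917 to 68222, plus strand), with 132, 141 and 134 CPM in the libraries labelled double mutant and 223, 252 and 236 CPM in WT libraries. No library crossed over, and the log2 fold change was -0.80 ± 0.07 (adjusted p = 2.78e-05). Counts of rps15 (ATCG01120, 123296 to 123562, minus strand) were 41.9, 43.2 and 39.3 CPM in the libraries labelled double mutant, against 69.7, 74.4 and 64.1 CPM in WT libraries. The groups were again separate, with a log2 fold change of -0.74 ± 0.07 (adjusted p = 5.30e-05). These 3 genes were also lower on the plastid scale, at -0.54 for rps16, -0.29 for rps18 and -0.23 for rps15.

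At the other end of the small subunit, rps14 and rps4 did not pass the test. The gene rps14 (ATCG00330, 36938 to 37240, minus strand) had 4566, 3739 and 3874 CPM in the libraries labelled double mutant, against 4464, 4462 and 4786 CPM in WT libraries. Replicate 1 of the libraries labelled double mutant lay among the WT values and the other 2 below them. Its log2 fold change was -0.17 ± 0.10 (adjusted p = 0.201), and without that library -0.27 (adjusted p = 0.0291), which passes. The gene rps4 (ATCG00380, 45223 to 45828, minus strand) had 433, 403 and 381 CPM in the libraries labelled double mutant, against 443, 504 and 432 CPM in WT libraries, so that replicate 1 of the libraries labelled double mutant lay just above WT replicate 3. Its log2 fold change was -0.18 ± 0.09 (adjusted p = 0.107). On the plastid scale both were higher, at 0.34 for rps14 and 0.33 for rps4. Of the other rows, rps2, rps3 and rps19 had log2 fold changes between -0.58 and -0.51. The first part of rps12, which is joined to its second part by splicing of separate transcripts, stood at -0.34 ± 0.07 (adjusted p = 0.00432) and the 2 copies of rps7 at -0.28 ± 0.08 (adjusted p = 0.0162 each). The calls of rps7 were lost without replicate 2 or without replicate 3 of the libraries labelled double mutant, with adjusted p of 0.0648 and 0.0729 for copy A.

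All 11 rows for the large ribosomal subunit fell relative to all genes, with a median of -0.63, against 26% of all tested genes. On the plastid scale 2 were lower, 9 did not pass the test and both copies of rpl2 turned positive. On that scale 8.21% of all tested genes were lower and 66.8% higher. The largest fall was that of rpl33 (ATCG00640, 67488 to 67688, plus strand), a small protein of the large subunit. It had 117, 123 and 116 CPM in the libraries labelled double mutant, against 214, 229 and 225 CPM in WT libraries. Both groups were tight and far apart, and the log2 fold change was -0.91 ± 0.06 (adjusted p = 8.83e-06). Counts of rpl14 (ATCG00780, 80696 to 81064, minus strand) were 436, 423 and 423 CPM in the libraries labelled double mutant, against 671, 795 and 633 CPM in WT libraries. Those of rpl20 (ATCG00660, 68512 to 68865, minus strand) were 183, 186 and 172 CPM in the libraries labelled double mutant, against 280, 310 and 267 CPM in WT libraries. Neither overlapped, and log2 fold changes were -0.71 ± 0.09 for rpl14 (adjusted p = 0.000284) and -0.66 ± 0.08 for rpl20 (adjusted p = 0.000133). The smallest changes were those of rpl36 and rpl2. The gene rpl36 (ATCG00760, 79489 to 79602, minus strand) had 135, 128 and 129 CPM in the libraries labelled double mutant, against 176, 221 and 177 CPM in WT libraries. Copy A of rpl2 (ATCG00830, 84337 to 85843, minus strand), a gene with an intron, had 1160, 1198 and 1149 CPM in the libraries labelled double mutant, against 1510, 1731 and 1515 CPM in WT libraries. The WT libraries lay above the others for both, and log2 fold changes were -0.55 ± 0.09 for rpl36 (adjusted p = 0.00128) and -0.44 ± 0.08 for rpl2 copy A (adjusted p = 0.00234). The rows rpl16, rpl22, rpl23 and rpl32 lay between -0.65 and -0.57.

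The coding sequences of rpl22 and rps3 overlap, which can affect their counts, though the size of any effect was not tested. The end of rpl22 and the start of rps3 share 16 bases on the same strand, and a read that touches both genes was assigned to none. The stretch is shown to make that overlap visible, on the minus strand at Pt:83445-83504, with the shared bases in capitals: they hold the start codon of rps3 and close with the stop codon of rpl22.
rpl22 and rps3: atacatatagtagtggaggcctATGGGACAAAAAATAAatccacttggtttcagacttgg
The first bases of rps19, at Pt:84254-84283 on the minus strand, are shown with the first codon in capitals, because its annotated coding sequence opens with GTG, whereas 36 of the 39 members open with ATG.
rps19: GTGacacgttcactaaaaaaaaaccctttt
The rps3 row had a log2 fold change of -0.58 ± 0.10, rpl22 had -0.57 ± 0.10 and rps19 had -0.51 ± 0.08, so that the neighbours differed by less than their standard errors.

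The genes matK, accD and clpP each encode a single plastid protein of another pathway, and they did not move together. Whereas matK fell on both scales, accD and clpP did not pass the test relative to all genes. On the plastid scale accD and clpP were higher, as were 66.8% of all tested genes. The maturase MatK helps to splice group II introns, and its gene lies within the intron of a lysine tRNA gene. It occupies 2056 to 3636 on the minus strand and has the identifier ATCG00040. It had 1921, 1937 and 1931 CPM in the libraries labelled double mutant, against 4129, 5188 and 4320 CPM in WT libraries. The libraries labelled double mutant were nearly equal and all were far below WT, at 42.5% of the WT level. The log2 fold change of -1.24 ± 0.11 (adjusted p = 2.81e-05) was the lowest of all 86 plastid protein-coding rows, and on the plastid scale it was -0.72 ± 0.08 (adjusted p = 1.08e-05). The gene accD (ATCG00500, 57075 to 58541, plus strand) encodes the plastid-made subunit of acetyl-CoA carboxylase, the first enzyme of fatty acid synthesis. It had 550, 500 and 481 CPM in the libraries labelled double mutant, against 623, 583 and 559 CPM in WT libraries. All libraries labelled double mutant lay below WT, but by little, and the log2 fold change was -0.21 ± 0.08 (adjusted p = 0.0581), which passed without replicate 1 of the libraries labelled double mutant (adjusted p = 0.0236). The gene clpP (ATCG00670, 69910 to 71882, minus strand), with introns, encodes a catalytic subunit of the stromal Clp protease. It had 1462, 1374 and 1386 CPM in the libraries labelled double mutant, against 1560, 1740 and 1525 CPM in WT libraries. The groups did not overlap here either, and the log2 fold change was -0.19 ± 0.08 (adjusted p = 0.0831). DESeq2's Wald test called both lower, with adjusted p of 0.0195 for accD and 0.0184 for clpP.

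**Figure D2:**
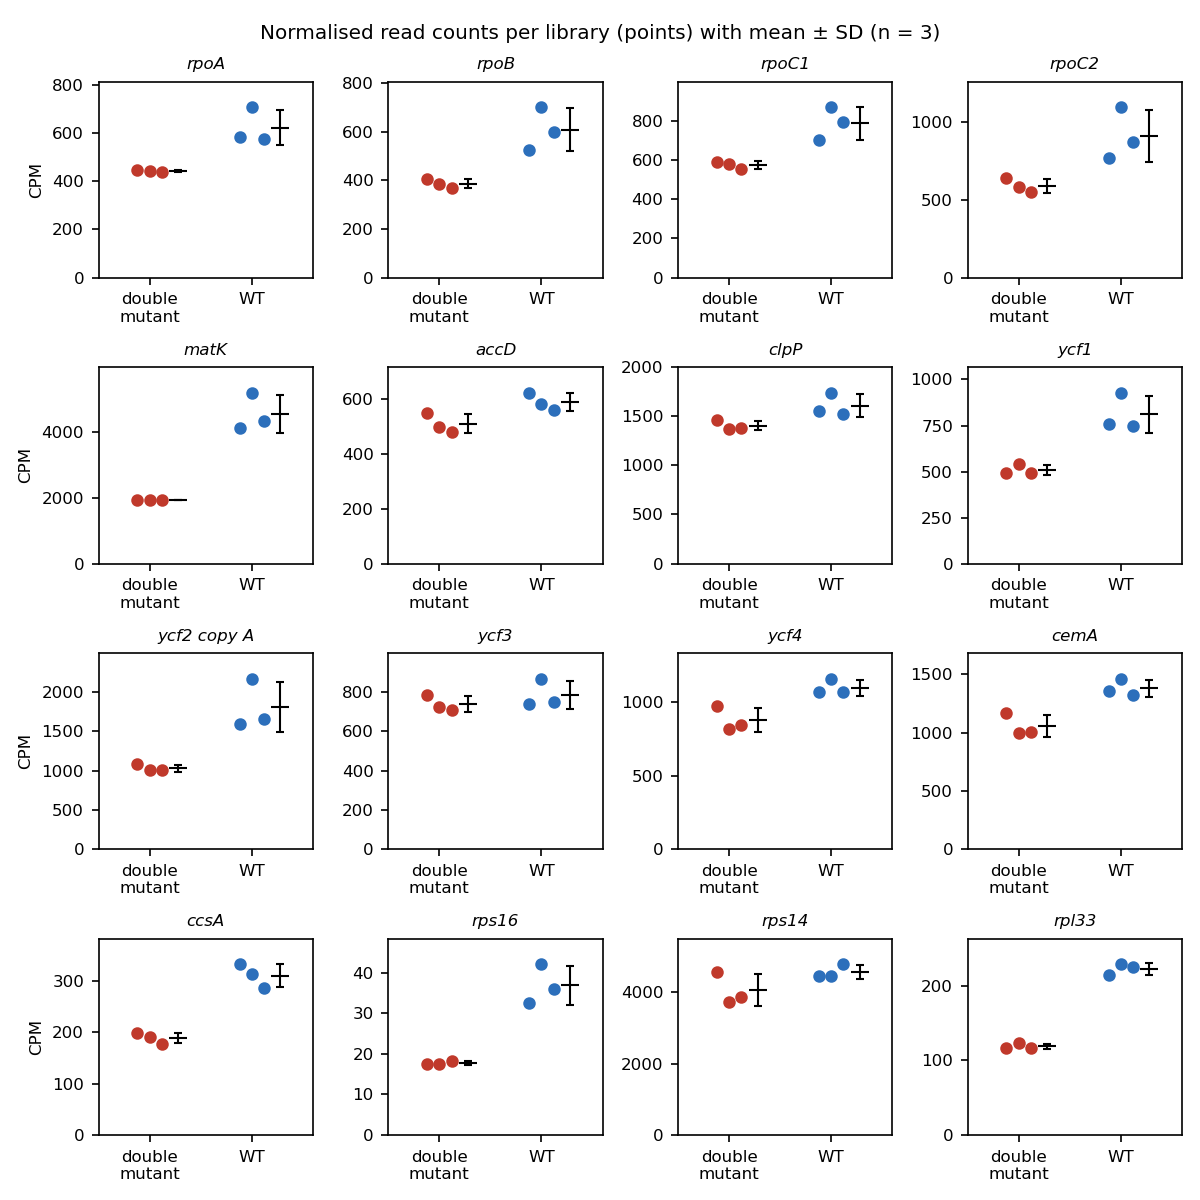
Normalised read counts (y axes, CPM from 0) of 16 members in each library (points, libraries labelled double mutant left and WT right) with the mean ± SD of 3 libraries. For matK and rps16 the groups stand far apart, while for ycf3 and rps14 a library labelled double mutant lies among the WT values.

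The large open reading frames ycf1 and ycf2 fell relative to all genes in all 4 rows, with a median of -0.74, against 26% of all tested genes. On the plastid scale both rows of ycf2 were lower, against 8.21% of all tested genes, while those of ycf1 did not pass the test. Ycf1 is described as part of the protein import machinery of the inner envelope, and Ycf2 as part of a motor complex with FtsH-like proteins that pulls in imported proteins. The full ycf1 (ATCG01130, 123884 to 129244, minus strand) had 490, 538 and 493 CPM in the libraries labelled double mutant, against 758, 927 and 745 CPM in WT libraries. Copy A of ycf2 (ATCG00860, 86474 to 93358, plus strand) had 1085, 1006 and 1004 CPM in the libraries labelled double mutant, against 1590, 2171 and 1661 CPM in WT libraries. No library labelled double mutant reached the WT range for either, and log2 fold changes were -0.68 ± 0.10 for ycf1 (adjusted p = 0.000567) and -0.81 ± 0.12 for ycf2 copy A (adjusted p = 0.000678).

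The short copy of ycf1 at the other edge of the inverted repeat had a nearly equal log2 fold change of -0.68 ± 0.11, but the rows are not independent. Of its 1032 bases, the first 1030 are identical to the start of the full gene, and reads that align to both were counted in both rows. The place where the copies part is shown, with the shared bases in capitals, on the plus strand at Pt:110405-110436 for the short copy and on the minus strand at Pt:128185-128244 for the full gene.
ycf1 short copy: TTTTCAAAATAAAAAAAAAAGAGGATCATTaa
ycf1: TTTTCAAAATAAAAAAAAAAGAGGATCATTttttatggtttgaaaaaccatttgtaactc
The short row therefore carries reads of the full gene's beginning, and its value is uncertain as a measure of a transcript of its own.

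The remaining 4 genes are ycf3, ycf4, cemA and ccsA. Ycf3 and Ycf4 are assembly factors of photosystem I, CemA is an envelope protein needed for normal uptake of inorganic carbon in green algae, and CcsA attaches heme to c-type cytochromes. Of ycf3 and ycf4, only ycf4 fell relative to all genes. On the plastid scale both were higher, at 0.43 for ycf3 and 0.19 for ycf4, as were 66.8% of all tested genes. The gene ycf3 (ATCG00360, 42584 to 44591, minus strand) had 786, 726 and 710 CPM in the libraries labelled double mutant, against 741, 869 and 750 CPM in WT libraries. Its groups overlapped, and its log2 fold change of -0.09 ± 0.09 (adjusted p = 0.436) was the smallest of all members. The gene ycf4 (ATCG00520, 59772 to 60326, plus strand) had 972, 816 and 846 CPM in the libraries labelled double mutant, against 1068, 1162 and 1067 CPM in WT libraries. The groups did not overlap, with a log2 fold change of -0.32 ± 0.09 (adjusted p = 0.0151), but the call was lost without replicate 2 or without replicate 3 of the libraries labelled double mutant, at adjusted p of 0.0655 and 0.0694. Both cemA and ccsA fell relative to all genes, whereas on the plastid scale ccsA was lower at -0.20 and cemA, at 0.13, did not pass the test. The gene cemA (ATCG00530, 60741 to 61430, plus strand) had 1169, 1001 and 1008 CPM in the libraries labelled double mutant, against 1357, 1465 and 1322 CPM in WT libraries. The gene ccsA (ATCG01040, 114461 to 115447, plus strand) had 198, 192 and 178 CPM in the libraries labelled double mutant, against 332, 313 and 286 CPM in WT libraries. Neither gene's groups overlapped, and log2 fold changes were -0.38 ± 0.09 for cemA (adjusted p = 0.00719) and -0.71 ± 0.08 for ccsA (adjusted p = 0.000108).

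Levels were compared between genes per kilobase of exon. The gene rps14 stood alone at 13397 ± 1464 CPM per kb in the libraries labelled double mutant and 15086 ± 615 CPM per kb in WT libraries (SD, n = 3 each). In WT libraries it was followed by rpl32 at 3350 ± 292, matK at 2875 ± 357, clpP at 2721 ± 196 and rps7 copy A at 2670 ± 161 CPM per kb, and neighbours in this order did not differ beyond their spread. In the libraries labelled double mutant the order below rps14 was clpP at 2381 ± 80.7, rps7 copy A at 2194 ± 92.6 and rpl32 at 2138 ± 88.8 CPM per kb. There matK stood at 1221 ± 5.16 CPM per kb, below ycf4, cemA, ycf3 and rpl2 as well, all of which lay under it in WT libraries. The lowest levels were those of rps16 and ycf1. For rps16 they were 73.8 ± 1.83 CPM per kb in the libraries labelled double mutant and 153 ± 19.9 CPM per kb in WT libraries. For ycf1 they were 94.6 ± 5.09 CPM per kb in the libraries labelled double mutant and 151 ± 19.0 CPM per kb in WT libraries. Subunits of PEP lay low as well, with rpoB at 120 ± 5.81 CPM per kb in the libraries labelled double mutant and 189 ± 27.5 CPM per kb in WT libraries.

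Members were also set beside genes with which they are known to share a transcript or which adjoin them. In the large ribosomal protein cluster, rpl23, rpl2, rps19, rpl22, rps3, rpl16, rpl14, rpl36 and rpoA had log2 fold changes between -0.71 and -0.44, all called. The genes rpoB, rpoC1, rpoC2 and rps2 are followed on the same strand by ATP synthase genes. There rps2 at -0.53 ± 0.10 stood beside atpI at -0.68 ± 0.08 and atpH at -0.58 ± 0.08, all 3 called. This run of genes goes on to atpF at -0.58 ± 0.08 and atpA at -0.37 ± 0.09, both named after their values were seen. The adjusted p of atpA was 0.00914, but 0.0563 without replicate 3 of the libraries labelled double mutant. On the plastid scale atpA turned positive and passed the test, at 0.14. In contrast rps14 shares a transcript with psaA and psaB, which encode the core of photosystem I, and all 3 failed the test. Their log2 fold changes were -0.13 ± 0.13 for psaA (adjusted p = 0.442), -0.12 ± 0.13 for psaB (adjusted p = 0.463) and -0.17 ± 0.10 for rps14. Along the unit from accD, the values were -0.21 for accD, -0.20 for psaI, -0.32 for ycf4, -0.38 for cemA and -0.43 for petA, of which the last 3 were called. On the plastid scale psaA, psaB and psaI turned positive and passed the test, at 0.38, 0.39 and 0.31, and petA turned positive without passing it.

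The rows rpl33 and rps18, which adjoin each other, stood at -0.91 and -0.80. By contrast clpP at -0.19, the first part of rps12 at -0.34 and rpl20 at -0.66, which follow one another on the minus strand, spread over a wide range. The gene rps15 at -0.74 ± 0.07 stood beside ndhH at -0.40 ± 0.08, and rpl32 at -0.65 ± 0.08 beside ccsA at -0.71 ± 0.08. The next gene, ndhD, lies on the opposite strand from ccsA and stood at -0.23 ± 0.08 (adjusted p = 0.04), a call that 6 alternatives ended. On the plastid scale ndhD turned positive and passed the test, at 0.28 (adjusted p = 0.00133). Differences between neighbours were not tested.

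**Figure D3:**
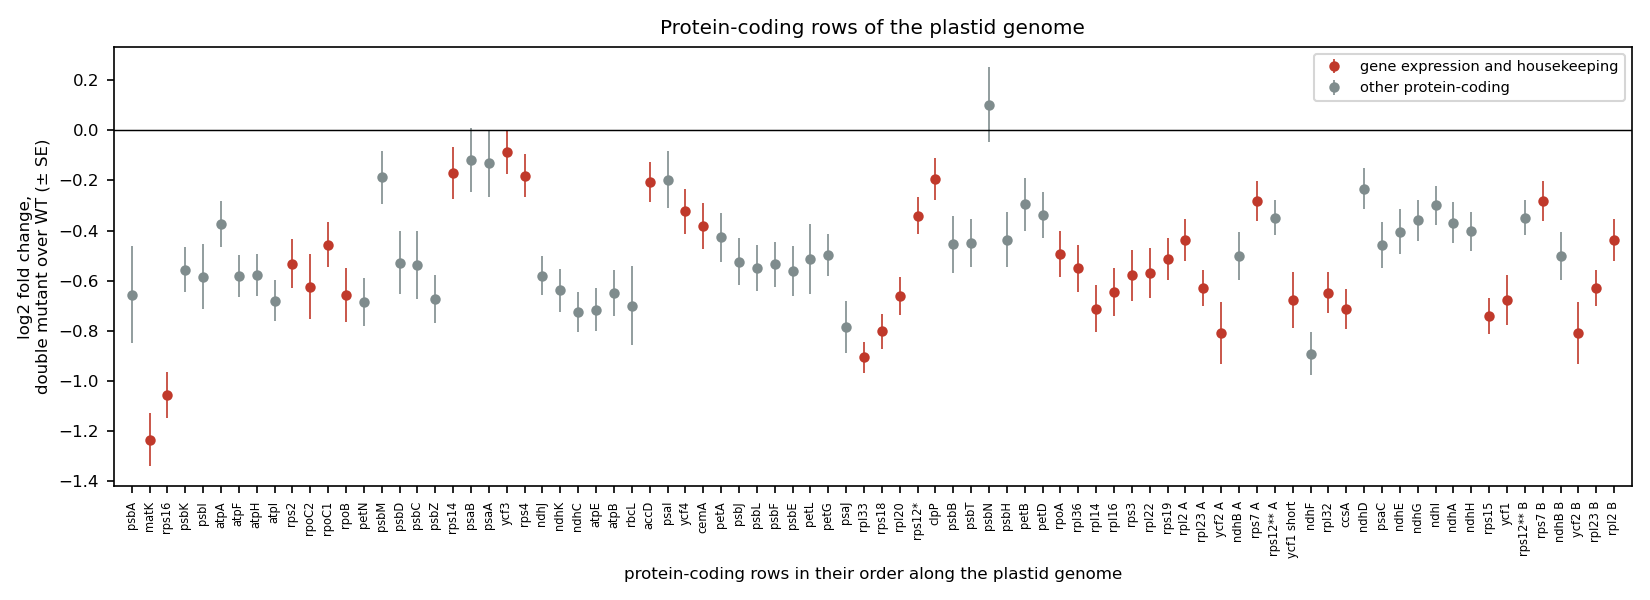
Log2 fold change (y axis, libraries labelled double mutant over WT, scaled on all genes, bars ± SE) of 84 protein-coding plastid rows in their order along the genome (x axis), members in red and others in grey, with rps12* for the first part and rps12** for the second part of rps12. The lowest values are matK and rps16 near the left end, and rps14, psaA, psaB, ycf3 and rps4 form a run of adjacent rows near zero, which turn positive when libraries are scaled on plastid genes.

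Other features of the members were described without a test. Exon length ran from 114 to 6885 bases and GC content from 28.7% to 48.2%. Over the 35 members counted once, Spearman's rho with the log2 fold change was 0.03 for exon length, 0.50 for GC content and 0.46 for the mean level per kilobase, where neighbours share transcripts and all members share libraries. The 7 rows with introns (rps16, rpoC1, ycf3, clpP, rpl16 and both copies of rpl2) ranged from -1.06 for rps16 to -0.09 for ycf3, nearly the whole range of the members. The 2 copies of each repeated gene agreed to within 0.01 on the log2 scale, as counting each alignment at full weight makes them do. Stretches of at least 50 bases with at least 95% identity to the nuclear chromosomes were found for 11 members and to the mitochondrial genome for 3, whereas 27, matK and rps16 among them, had neither.

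**Figure D4:**
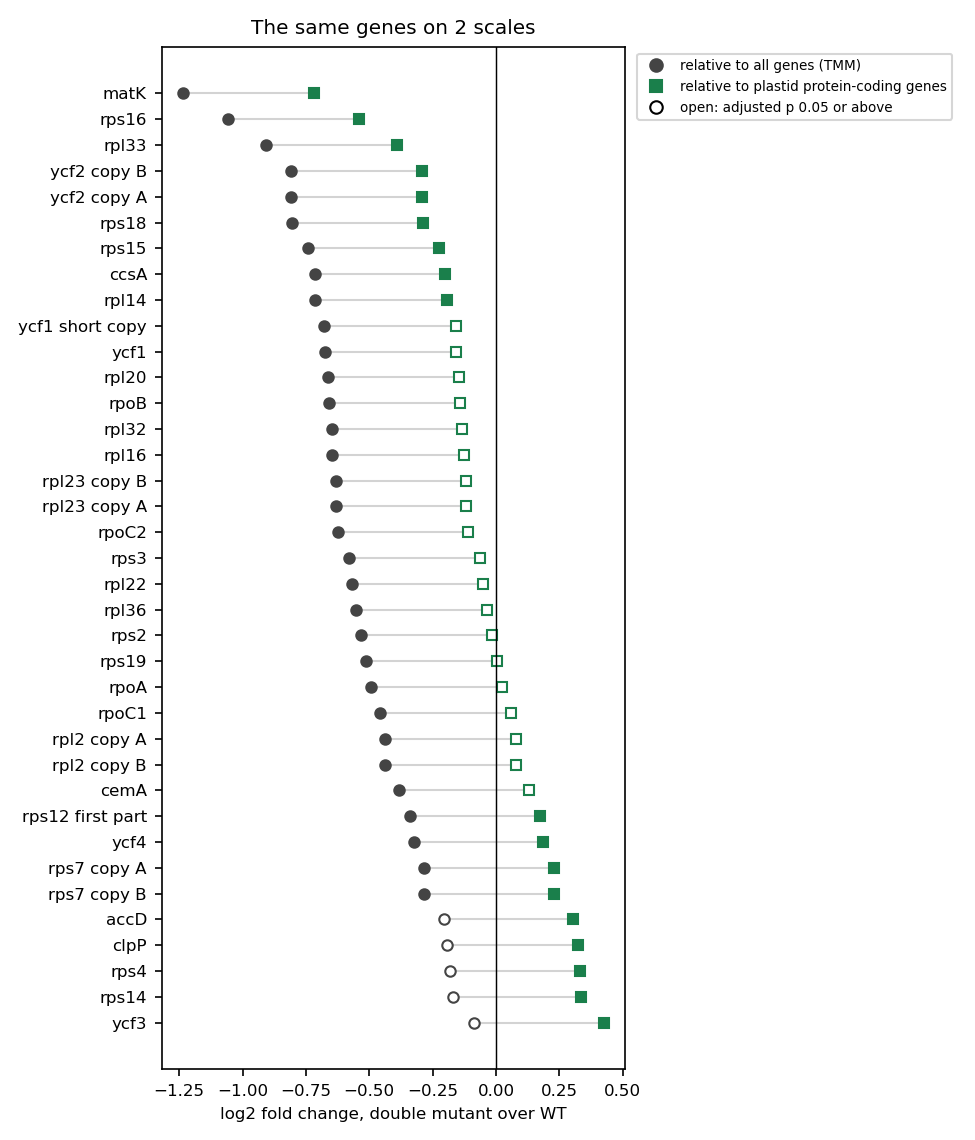
Log2 fold change (x axis, libraries labelled double mutant over WT) of 37 members scaled on all genes (circles) and scaled on plastid protein-coding genes (squares), with open symbols for an adjusted p of 0.05 or above. The order is nearly kept while the values move up by about 0.51, which leaves 9 members lower and 9 higher on the plastid scale. The sign turns for 15 members, of which only the 9 higher pass the test there.

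The nuclear genome encodes most of the proteins that work with these gene products. In 10 lists of such genes, 121 were listed and 119 were tested, and 103 fell and 6 rose, against 26% and 26.3% of all tested genes. On the plastid scale these counts became 48 lower and 22 higher, against 8.21% and 66.8% of all tested genes. The same shares stand behind the plastid-scale counts of each list below. Relative to all genes, the number that rose was 2 without replicate 2 of the libraries labelled double mutant. It was 3 without replicate 1 or 3 of them or without WT replicate 1. The nuclear-encoded plastid ribosomal proteins had the lowest medians. All 14 of the small subunit fell with a median of -1.06 and all 26 tested of the large subunit with a median of -1.03, and on the plastid scale 13 and 26 were still lower. Their plastid-encoded partners had medians of -0.53 and -0.63, and the difference between nuclear-encoded and plastid-encoded ribosomal proteins was not tested. At the low end of the small subunit was GHS1 (AT3G27160), the plastid protein S21, at -1.28 ± 0.06. Among those with a mean of at least 5 CPM, the highest were EMB3137 (AT5G14320), the plastid protein S13, at -0.92 ± 0.07, and RPS1 (AT5G30510) at -0.74 ± 0.08. A gene below that level stood higher, at -0.38 ± 0.11, and turned positive on the plastid scale without passing the test. RPS1 averaged 149 ± 5.60 CPM in the libraries labelled double mutant and 249 ± 19.9 CPM in WT libraries, without overlap. In the large subunit AT1G29070, the plastid protein L34, had -1.30 ± 0.08 and RPL21C (AT1G35680) had -1.20 ± 0.06, while RPL9 (AT3G44890) had -0.89 ± 0.08 and RPL12-C (AT3G27850) had -0.84 ± 0.08. All 7 of the ribosomal protein genes named here passed the test under each alternative, the plastid scale included.

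Of the nuclear partners of PEP, 13 of 14 associated proteins fell relative to all genes with a median of -0.60. On the plastid scale 4 were lower and 1 was higher, against 8.21% and 66.8% of all tested genes. FLN1 (AT3G54090), a fructokinase-like protein, had -1.08 ± 0.08, and the thioredoxin TRX z (AT3G06730), its known binding partner, had -0.86 ± 0.09. FLN1 averaged 16.02 ± 0.953 CPM in the libraries labelled double mutant and 33.7 ± 2.87 CPM in WT libraries. The smallest falls were those of FSD3 (AT5G23310), an iron superoxide dismutase, at -0.37 ± 0.12 and of PTAC2 (AT1G74850), a PPR protein, at -0.33 ± 0.06, and both turned positive on the plastid scale without passing the test. The call of FSD3 (adjusted p = 0.029) was lost without any 1 of the 3 libraries labelled double mutant or without WT replicate 2, with adjusted p up to 0.0798.

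The 6 sigma factors did not move as a block. SIG2 (AT1G08540) and SIGF (AT2G36990) fell, at -0.76 ± 0.05 and -0.65 ± 0.06. SIG2, which serves several tRNA and photosynthesis genes, averaged 28.7 ± 0.670 CPM in the libraries labelled double mutant and 48.5 ± 1.43 CPM in WT libraries. SIGC (AT3G53920) rose at 0.19 ± 0.07 (adjusted p = 0.0385), but this call was lost in 6 alternatives, among them the omission of any 1 library labelled double mutant. SIGE (AT5G24120), a sigma factor known for its induction by blue light and stress, was named after its values were seen. It had 6.75, 4.95 and 5.63 CPM in the libraries labelled double mutant, against 3.37, 2.17 and 2.24 CPM in WT libraries. Every library labelled double mutant was above every WT library, with a log2 fold change of 1.17 ± 0.18 (adjusted p = 0.000729). SIGA (AT1G64860), the general sigma factor of leaves, stood at 0.31 ± 0.13 and did not pass the test (adjusted p = 0.0713), although it did without WT replicate 3 (adjusted p = 0.0132). On the plastid scale 4 of the 6 were higher and 1 was lower, against 66.8% and 8.21% of all tested genes. The share that was higher was thus close to that of all tested genes. Of the phage-type polymerases, SCA3 (AT2G24120), the plastid enzyme, fell at -0.32 ± 0.07 and AT5G15700, which serves both organelles, rose at 0.29 ± 0.06, and on the plastid scale SCA3 turned positive without passing the test.

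Factors that splice, edit or stabilise plastid RNA fell in 16 of 21 tested cases and rose in 1, with a median of -0.44. On the plastid scale 2 were lower and 5 were higher, against 8.21% and 66.8% of all tested genes. The RNA-binding proteins CRB (AT1G09340) and CSP41A (AT3G63140) had -1.04 ± 0.10 and -0.86 ± 0.10. CFM3A (AT3G23070), a splicing factor with CRM domains, had -0.35 ± 0.07 and turned positive on the plastid scale without passing the test. The member that rose was RIP1 (AT3G15000), an editing factor found in plastids and mitochondria, at 0.28 ± 0.08 (adjusted p = 0.0193), a call lost without replicate 2 or without replicate 3 of the libraries labelled double mutant.

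The partners of ClpP, AccD, Ycf1, Ycf2, Ycf3, Ycf4 and CcsA were mostly lower relative to all genes, including those of clpP and accD, which had not themselves passed the test. Of 15 nuclear subunits of the Clp protease, 10 fell and 2 rose with a median of -0.38. On the plastid scale 0 were lower and 7 were higher, against 8.21% and 66.8% of all tested genes. AT4G12060, an accessory subunit, had -0.59 ± 0.08 and the catalytic CLPP5 (AT1G02560) had -0.57 ± 0.06, while CLPR1 (AT1G49970) and the chaperone ERD1 (AT5G51070) stood at 0.17 ± 0.06 and 0.22 ± 0.08, calls that were lost in 8 and 5 alternatives. All 4 nuclear subunits of plastid acetyl-CoA carboxylase fell, whereas on the plastid scale 1 was lower and CAC2 turned positive without passing the test. CAC3 (AT2G38040) had -0.74 ± 0.07, BCCP2 (AT5G15530) -0.68 ± 0.10, CAC1 (AT5G16390) -0.52 ± 0.08 and CAC2 (AT5G35360) -0.42 ± 0.07. CAC3, the alpha subunit that pairs with AccD, averaged 66.3 ± 1.71 CPM in the libraries labelled double mutant and 110 ± 7.48 CPM in WT libraries, and the difference between its log2 fold change and that of accD was not tested.

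All 9 nuclear partners of Ycf1 and Ycf2 fell with a median of -0.39. On the plastid scale 1 was lower and 2 were higher, against 8.21% and 66.8% of all tested genes. The FtsH-like EMB3144 (AT5G64580) had -0.72 ± 0.09 and emb1211 (AT5G22640), a partner of Ycf1 at the inner envelope, -0.72 ± 0.06, while the FtsH-like emb2458 (AT3G04340) had -0.31 ± 0.07 and EMB2083 (AT3G16290) -0.22 ± 0.06. These last 2 turned positive on the plastid scale and passed the test there. All 8 assembly factors of photosystem I and cytochrome c fell with a median of -0.49. On the plastid scale 0 were lower and 2 were higher, against the same 8.21% and 66.8%. AT1G49380, a cytochrome c assembly protein that works with CcsA, had -0.65 ± 0.06 and PPD1 (AT4G15510), an assembly factor of photosystem I, had -0.62 ± 0.09. HCF164 (AT4G37200) and CcdA (AT5G54290), which carry reducing power into the thylakoid, had -0.27 ± 0.08 and -0.21 ± 0.07, were higher on the plastid scale, and lost their calls without replicate 2 or replicate 3 of the libraries labelled double mutant, CcdA also without WT replicate 2 or 3.

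**Figure D5:**
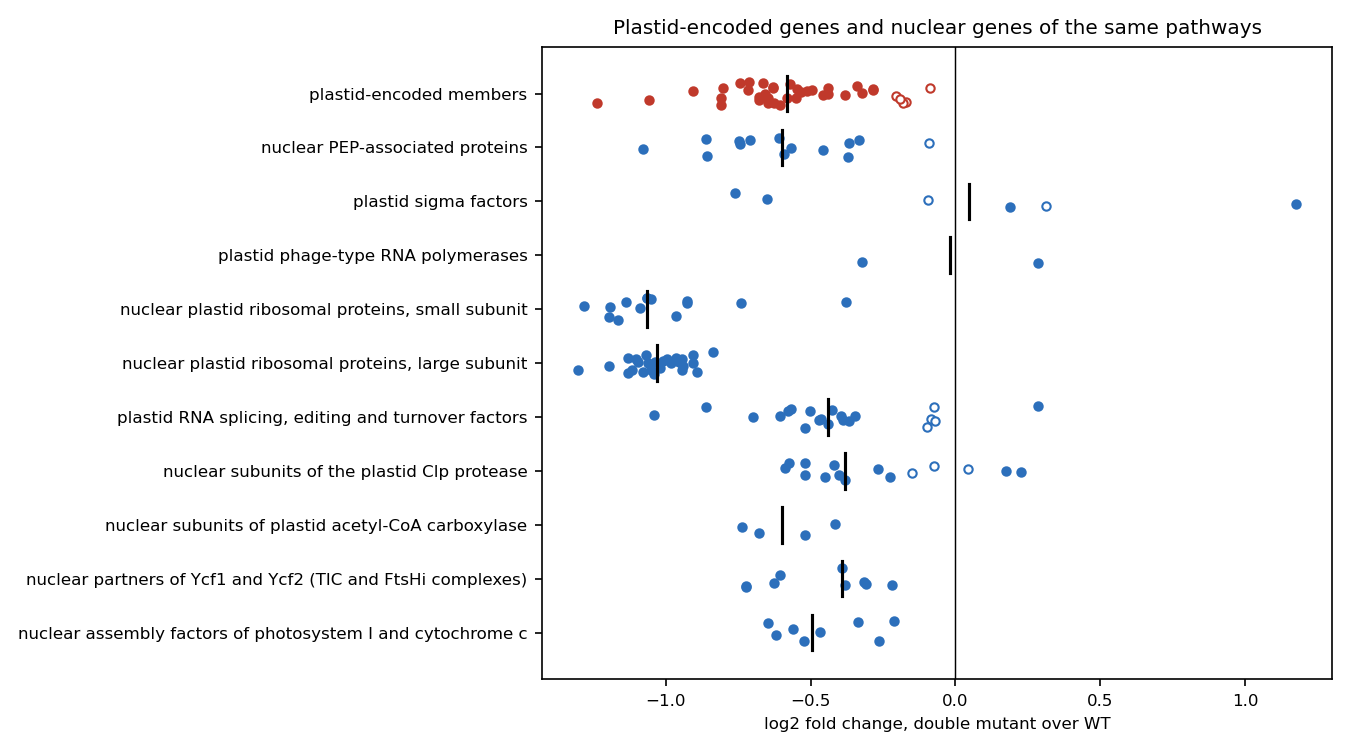
Log2 fold change (x axis, libraries labelled double mutant over WT, scaled on all genes) of the plastid-encoded members (red) and of nuclear genes in 10 lists (blue), 1 point a gene, filled where the adjusted p was under 0.05, with a black bar at each median. The nuclear-encoded ribosomal proteins lie lowest, with medians of -1.06 and -1.03, and the sigma factors spread on both sides of zero. On the plastid scale 48 of the 119 tested nuclear genes are lower and 22 higher, against 8.21% and 66.8% of all tested genes.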

How the data were processed

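Raw read counts per gene were deposited by the authors, 1 table a library. Reads were aligned with STAR to TAIR10, per the submitters' processing notes, and, per the file headers, featureCounts 2.0.0 assigned them to genes. The header options show stranded counting over exons, with a read of several alignments counted at each at full weight. The sources used here do not give the versions of STAR or the annotation. Plastid names came from the TAIR10.1 annotation, and sequences from its plastid genome of 154478 bases.

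From the deposited counts, CPM are counts per 1e+06 of the TMM-adjusted library total. The test was that of edgeR 4.0.16, run in R 4.3.3 (filterByExpr, quasi-likelihood fit on group, two-sided, Benjamini-Hochberg over 21805 genes, threshold 0.05). The SE is the log2 fold change divided by the square root of F. The code was tested on simulated data. The plastid scale takes TMM factors from plastid protein-coding rows, the members included. The 13 alternatives were RLE scaling, DESeq2 1.42.0, no low-count filter, a replicate block, nuclear and plastid scaling, merged repeated copies, and each library left out. Similar sequence was sought with BLAST+ 2.17.0.

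The series text speaks of 2 biological replicates, whereas titles number 3 libraries a group, and no label ties them to separate cultures. The p-values thus reflect library-to-library spread alone, possibly technical. Libraries of one group differed by more than sampling noise (chi-square per degree of freedom 10.9 to 38.3). The rule for members uses identifiers only, but the set and the lists were chosen with earlier results of these data known. Values per library are given for polymerase subunits, matK, accD, clpP and ycf genes, cemA, ccsA and the 3 lowest and 2 highest ribosomal genes of each subunit. Of each nuclear list, up to 2 genes at either end with a mean of at least 5 CPM are named among those called. Of the 121 listed nuclear genes, 120 had a row here, and 1 more was below the low-count filter. Values of a few genes are not reported here.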

Additional observations from a re-analysis of the deposited data

How the results depend on the processing

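Scaling on plastid protein-coding genes was the setting that mattered. It gave 9 members lower and 9 higher (34 and 0 relative to all genes), 7 and 12 of the other plastid rows, and 48 and 22 of the nuclear genes. Of all tested genes 8.21% were lower and 66.8% higher on that scale. Medians were -0.062 for the members and 0.012 for the other plastid rows. The sign turned for rps12 first part (0.17), rpoC1 (0.058), rps14 (0.34), ycf3 (0.43), rps4 (0.33), accD (0.30), ycf4 (0.19), cemA (0.13), clpP (0.32), rpoA (0.023), rps19 (0.0030), rpl2 copy A (0.077), rpl2 copy B (0.077), rps7 copy A (0.23) and rps7 copy B (0.23). Of these 15 members, only the 9 called higher passed the test on that scale. The sign also turned for FSD3 (0.15), PTAC2 (0.18), SCA3 (0.19), CFM3A (0.17), CAC2 (0.10), emb2458 (0.21), EMB2083 (0.30), HCF164 (0.25), CcdA (0.30), psaA (0.38), psaB (0.39), psaI (0.31), petA (0.085), ndhD (0.28), atpA (0.14) and ndhH (0.11). Under RLE scaling, no filter, nuclear scaling and the omission of any 1 WT library, 34 members fell, with DESeq2 36 and with repeated copies merged 30 of 35. With libraries left out in turn, 31 to 36 members fell, 34 to 42 of the other plastid rows, and 98 to 103 of the nuclear genes, while 2 to 6 nuclear genes rose and the member median lay between -0.65 and -0.46, the upper end without WT replicate 2. Deviations of same-numbered libraries had correlations of 0.19, 0.07 and -0.002, against -0.14 to 0.10 for differently numbered ones. With 3 libraries per group these values cannot settle whether replicate numbers pair the libraries. With the replicate block 34 members fell. Counting repeated copies once, the members took 2.34% of counts in the libraries labelled double mutant and 2.68% in WT libraries. The cause of these shifts was not tested. With at least 1290 counts for every member in each library, the spread between 3 libraries limits precision more than depth.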
